A study of Mus musculus with 8 samples.

Results

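The glycogen metabolism genes described here are 9 genes that build, branch, regulate or break down glycogen in mouse: Gys1, Gbe1, Ugp2, Pgm1, Pgm2, Ppp1r3c, Pygl, Pygb and Pygm. They were chosen by name, with earlier results of these data known. Each was read from a probe set that the platform annotation assigns to that gene alone. Each of the 9 had 1 such probe set, and they are 9 of the 19936 genes tested. Whole-kidney RNA of female mice on a mixed C57BL/6 and SV127 background was hybridised to 8 Affymetrix arrays. The labels give 4 arrays the genotype Pax8-rtTA;LC-1;Vhl-floxed (here labelled mutant) and 4 arrays the genotype control (littermates, here labelled control); which of the alleles the controls carried is not given in the sources used here. Both groups received doxycycline, 0.2 mg/ml in sucrose water (5%), from 3 weeks of age; it lasted 2 weeks, was followed by 1 week of normal water, and kidneys were taken at 6 weeks. Pax8-rtTA with LC-1 directs Cre recombinase to tubule epithelium when doxycycline is present, so vessels, glomeruli and interstitium of the same kidneys are outside the targeted cells.

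Glycogen is the branched glucose store of animal cells. Phosphoglucomutases turn glucose 6-phosphate into glucose 1-phosphate, Ugp2 activates it to UDP-glucose, glycogen synthase lengthens the chains and Gbe1 adds the branches. Glycogen phosphorylases release the glucose again, and protein phosphatase 1, held on the glycogen particle by targeting subunits such as Ppp1r3c, switches synthase on and phosphorylase off. The normal kidney stores little glycogen, whereas clear cell renal carcinoma, in which VHL is commonly lost, is known for storing it, and several genes of synthesis are known targets of hypoxia-inducible factor (HIF) in cultured cells.

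The labels and the data disagree on direction. Vhl read 8.34 ± 0.0909 in the arrays labelled mutant and 8.05 ± 0.118 in those labelled control (SD, n = 4 each), a rise (limma adjusted p = 0.0387, but 0.0558 with the replicate block, and 0.0785 to 0.114 when mutant array 2, 3 or 4 or control array 1, 2 or 3 was left out). The call of Vhl was also lost without mutant arrays 1 and 2 together (limma adjusted p = 0.0661) or 3 and 4 together (0.1225). The position of its probe set relative to the floxed exon was not analysed here; one outside the deleted stretch would check nothing. Of the HIF-induced genes Egln3, Car9, Adm, Pdk1 and Vegfa, all 5 fell, with log2 differences from -2.96 for Egln3 to -0.84 for Vegfa (limma adjusted p from 2.15e-06 to 5.23e-04). Every direction below is therefore one between labelled groups and not a direction of Vhl loss. Markers of proximal tubule, thick ascending limb, distal convoluted tubule and collecting duct, as genes, had means of 8.69 to 13.7, against array lower quartiles of 6.21 to 6.28, so the tissue read as kidney. Of all genes, 1442 (7.23%) passed the limma test at an adjusted p under 0.05, 925 lower (4.64%) and 517 higher (2.59%) in the arrays labelled mutant. Mutant arrays 1 and 2 stood apart from mutant arrays 3 and 4 on the second principal component, which held 19.1% of the variance (14.5 and 6.99 against -16.3 and -14.2). List genes whose call changed without either pair are named below.

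Several genes of glycogen synthesis and the phosphatase subunit Ppp1r3c were lower in the arrays labelled mutant, and the phosphorylases did not pass the test. Of the 9 members 4 fell, 0 rose and 5 did not pass, against 4.64% of all genes that fell. Those that fell were Ppp1r3c, Pgm1, Gbe1 and Gys1, by 0.51 to 0.96 on the log2 scale. Of the 5 synthesis enzymes 3 fell, with a median log2 difference of -0.51, and of the 3 phosphorylases 0 passed, with a median of 0.11. Over all 9 the median was -0.22, and over all genes tested 0.025. In 5 of the 9 the labelled groups did not overlap, as in 14.8% of all genes. Without mutant arrays 1 and 2 the members that fell were 3 of 9, and without mutant arrays 3 and 4 they were 4 of 9. Over all genes, 646 were lower without mutant arrays 1 and 2, against 925 with all arrays. The matching count over all genes without mutant arrays 3 and 4 is not given here.

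The 250 bases upstream of the annotated start are shown for the 4 genes that fell, and for Ugp2, whose values were the closest between the groups, because the members that passed all moved in 1 direction while Ugp2 did not pass. They come from RefSeq's promoter windows on GRCm38.p6, 5′ to 3′ on the gene's strand. Capitals mark the letters ACGTG or GCGTG on either strand, the core of the element that HIF binds; ACGTG also lies within the E-box CACGTG that other factors bind. The Gys1 window is chr7:45434589-45434838 (plus strand), that of Gbe1 chr16:70313699-70313948 (plus), that of Pgm1 chr4:99929201-99929450 (plus), that of Ppp1r3c chr19:36736605-36736854 (minus) and the one of Ugp2 shown chr11:21371268-21371517 (minus).
Gys1: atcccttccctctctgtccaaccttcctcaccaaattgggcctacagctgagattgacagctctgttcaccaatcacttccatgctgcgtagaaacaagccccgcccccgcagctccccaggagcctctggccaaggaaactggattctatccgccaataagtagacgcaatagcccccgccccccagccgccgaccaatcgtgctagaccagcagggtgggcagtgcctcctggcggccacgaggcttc
Gbe1: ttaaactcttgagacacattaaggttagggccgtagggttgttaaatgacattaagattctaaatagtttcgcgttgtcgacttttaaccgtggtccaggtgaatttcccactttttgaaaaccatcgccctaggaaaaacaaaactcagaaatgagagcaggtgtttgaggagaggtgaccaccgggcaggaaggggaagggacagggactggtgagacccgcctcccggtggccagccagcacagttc
Pgm1: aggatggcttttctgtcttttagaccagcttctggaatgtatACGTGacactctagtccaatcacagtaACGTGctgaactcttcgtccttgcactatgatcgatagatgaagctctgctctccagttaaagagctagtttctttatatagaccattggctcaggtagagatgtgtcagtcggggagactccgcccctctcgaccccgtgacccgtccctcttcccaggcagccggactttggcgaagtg
Ppp1r3c: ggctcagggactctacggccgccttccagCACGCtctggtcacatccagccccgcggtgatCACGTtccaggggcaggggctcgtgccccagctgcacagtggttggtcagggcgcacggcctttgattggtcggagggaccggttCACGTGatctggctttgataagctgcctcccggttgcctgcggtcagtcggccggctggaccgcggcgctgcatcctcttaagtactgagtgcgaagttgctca
Ugp2: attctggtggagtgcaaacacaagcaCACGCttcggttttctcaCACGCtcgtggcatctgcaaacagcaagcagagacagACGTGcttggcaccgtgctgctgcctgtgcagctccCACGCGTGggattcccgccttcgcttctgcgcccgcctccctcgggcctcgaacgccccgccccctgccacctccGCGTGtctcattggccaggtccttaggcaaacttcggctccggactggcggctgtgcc

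Matches were found upstream of genes that fell and of genes that did not pass. Ppp1r3c held 4 matches, of which a pair were the strands of 1 E-box CACGTG at -104 to -99 from the start, and Pgm1 held 2 matches, both ACGTG on the gene's own strand. Gys1 and Gbe1 held 0 matches, which says only that these letters are not in this window. Ugp2 held 6 matches upstream of the start shown and 0 upstream of its other annotated start (chr11:21370630-21370879). Pygl, Pygb and Pygm held 2 each and Pgm2 held 1. At least 1 match stood in 38.6% of all 32851 windows of this length, in 46.2% of the 19177 windows of tested genes and in 54.1% of the 913 windows of genes that fell. By motif, ACGTG stood in 18.4% of the windows of tested genes and 20.2% of those of genes that fell, and GCGTG in 35.9% and 44.5%. The 913 windows belong to 715 genes, and the base composition of these sets of windows was not compared. A match is a run of letters and not a shown binding site.

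**Figure D1:**
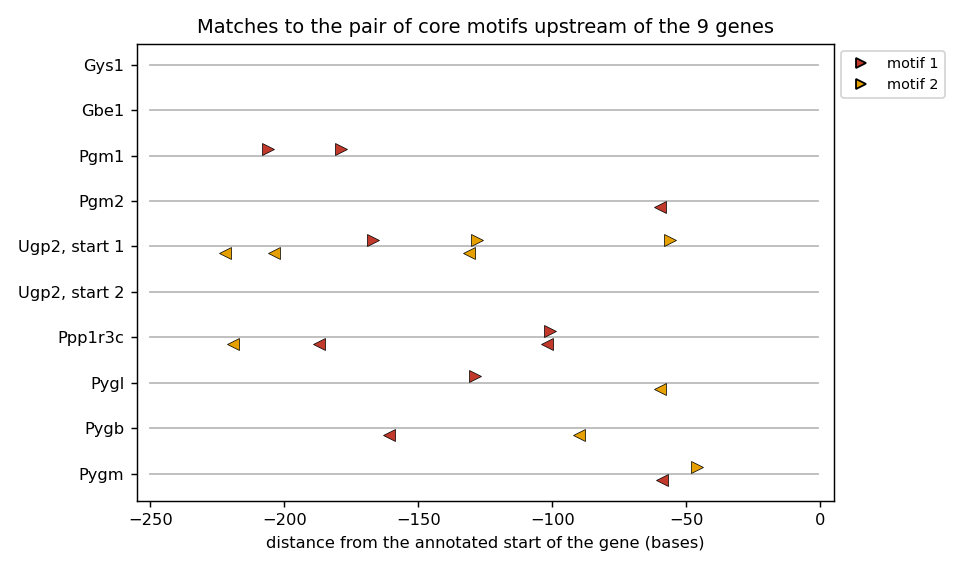
Position of each match to the pair of 5-base motifs, in bases from the annotated start, upstream of the 9 genes; Ugp2 has a line for each of its annotated starts. Red triangles are ACGTG (motif 1) and orange ones GCGTG (motif 2); those pointing right lie on the gene's strand and those pointing left on the opposite strand. Ugp2 has 6 matches at its upstream start, Ppp1r3c 4, Pgm1 2, and Gys1 and Gbe1 0.

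Pgm1 encodes the main phosphoglucomutase, which interconverts glucose 6-phosphate and glucose 1-phosphate. Here it is the gene with Entrez identifier 72157, which older mouse annotation called Pgm2, as it called 66681 (Pgm2 here) Pgm1. Pgm1 (chromosome 4, 99929451 to 99987294, GRCm38.p6) read 9.57, 9.87, 10.00 and 9.88 in mutant arrays 1 to 4 and 10.56, 10.66, 10.65 and 10.33 in control arrays 1 to 4. The groups did not overlap; mutant array 1 was the lowest, and control array 4 was the control nearest to the mutants. The difference was 1.65-fold (9.83 ± 0.183 against 10.6 ± 0.154, SD, n = 4 each; log2 difference -0.72, SE 0.103, limma adjusted p = 0.00304). By exact permutation p was 0.0286, two-sided as in all such tests here, and no division of 8 arrays into 4 and 4 can give less. Pgm2, which acts mainly on pentose phosphates, was 9.07 to 9.18 in the arrays labelled mutant and 9.19 to 9.38 in those labelled control. Its groups did not overlap either, by a narrow margin, but the log2 difference of -0.16 (SE 0.0590) did not pass over all genes (limma adjusted p = 0.136; exact permutation p = 0.0286).

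Ugp2, which makes UDP-glucose, the direct donor for glycogen synthase, had nearly the same values in all arrays. It read 10.28, 10.28, 10.28 and 10.26 in mutant arrays 1 to 4 and 10.25, 10.31, 10.31 and 10.24 in control arrays 1 to 4. All 4 mutant arrays lay within the range of the control arrays. The log2 difference was -0.0043 (SE 0.0460, limma adjusted p = 0.968), with a 95% interval of 0.928 to 1.07 for the ratio of labelled mutant to labelled control. A change beyond that interval was thus not seen for this enzyme, while Pgm1 and Gys1, which act just before and after it, fell.

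Gys1, the glycogen synthase of muscle and most other tissues, lies on chromosome 7 (45434839 to 45456617). It read 10.08, 10.18, 10.12 and 10.22 in mutant arrays 1 to 4 and 10.59, 10.73, 10.70 and 10.61 in control arrays 1 to 4. The groups did not overlap, and each kept within 0.14 log2 units (SD 0.0619 and 0.0679). This made Gys1 1.42-fold lower where the label was mutant (log2 difference -0.51, SE 0.0563, limma adjusted p = 7.91e-04; exact permutation p = 0.0286).

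Gbe1, the branching enzyme (chromosome 16, 70313949 to 70569720), varied more. It read 9.47, 9.66, 10.09 and 9.85 in mutant arrays 1 to 4 and 10.11, 10.39, 10.56 and 10.44 in control arrays 1 to 4. The groups came within 0.02 of each other, at mutant array 3 and control array 1. It was 1.52-fold lower (9.77 ± 0.262 against 10.4 ± 0.191, SD, n = 4 each; log2 difference -0.60, SE 0.134, limma adjusted p = 0.0239; exact permutation p = 0.0286). This call was lost without mutant array 2 (limma adjusted p = 0.0747), control array 2 (0.0676), control array 3 (0.0744) or control array 4 (0.0543); the alternatives gave limma adjusted p values of 0.00308 to 0.131. Without mutant arrays 1 and 2 together the log2 difference was -0.40 (0.131).

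Ppp1r3c, also known as PTG (protein targeting to glycogen), had the largest difference of the 9. It lies on chromosome 19 (36731731 to 36736604) and encodes a scaffold that brings protein phosphatase 1 to glycogen. It read 6.37, 6.72, 6.65 and 6.65 in mutant arrays 1 to 4 and 7.49, 7.78, 7.69 and 7.25 in control arrays 1 to 4. The groups were separated by 0.53 log2 units, with mutant array 1 lowest and control array 4 the control nearest to the mutants. It was 1.94-fold lower (6.60 ± 0.155 against 7.55 ± 0.235, SD, n = 4 each; log2 difference -0.96, SE 0.118, limma adjusted p = 0.00147; exact permutation p = 0.0286). Its labelled mutant values lie near the arrays' lower quartiles, where differences can be compressed.

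The phosphorylases are the enzymes of breakdown, named for liver (Pygl), brain (Pygb) and muscle (Pygm), and the labelled groups overlapped in all 3. Pygl, on chromosome 12, read 8.38 to 8.65 in the arrays labelled mutant and 8.64 to 8.92 in those labelled control (log2 difference -0.22, SE 0.0844, limma adjusted p = 0.162). Pygb, on chromosome 2, read 9.47 to 9.66 and 9.31 to 9.49 (log2 difference 0.15, SE 0.0616, limma adjusted p = 0.183). Pygm, on chromosome 19, read 8.27 to 8.37 and 8.10 to 8.33 (log2 difference 0.11, SE 0.0692, limma adjusted p = 0.370). Their 95% intervals for the ratio of labelled mutant to labelled control were 0.753 to 0.977, 1.01 to 1.22 and 0.973 to 1.21, so differences of the size of those of Pgm1 or Ppp1r3c lay outside them. Each interval is for its gene alone, without adjustment over genes. That of Pygl lay wholly below equality and that of Pygb wholly above it, so smaller differences are not set aside. The exact permutation p was 0.0571 for Pygl and Pygb and 0.229 for Pygm. Taken by array number, Pygl was lower in the array labelled mutant in 4 of 4 pairs and Pygb higher in 4 of 4, and with the replicate block neither passed (limma adjusted p = 0.0871 and 0.112). The skeletal muscle markers Ckm, Acta1, Myh4, Tnnt3 and Mylpf had a mean of 7.10 to 7.23 and 7.01 to 7.14 over the arrays of the groups, and 0 of 5 passed.

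**Figure D2:**
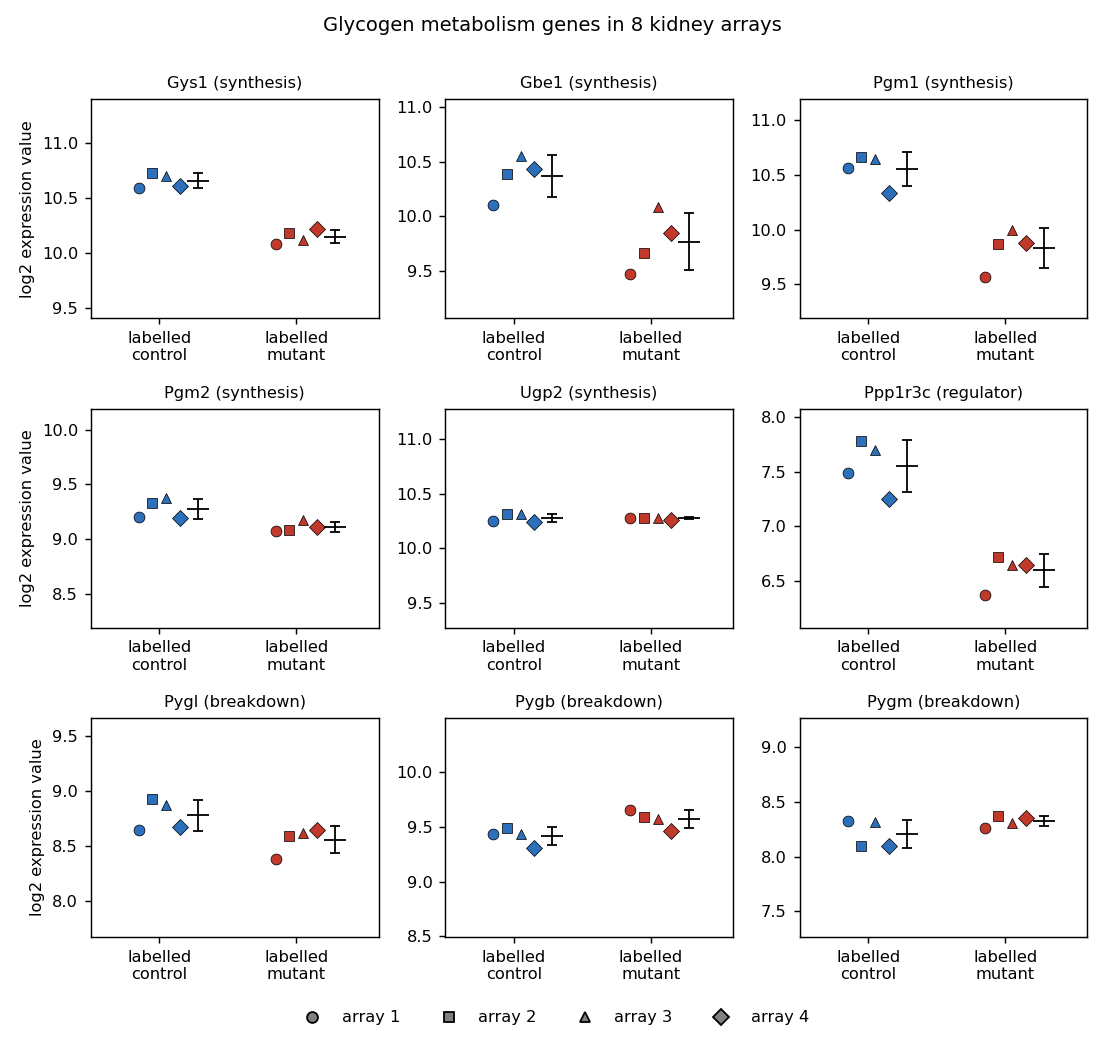
Log2 expression value of each of the 9 genes in the 4 arrays labelled control (blue) and the 4 labelled mutant (red); marker shapes give the array number, the bar beside each group is the mean ± SD, and every panel spans 2 log2 units. The groups are apart in Gys1, Gbe1, Pgm1, Pgm2 and Ppp1r3c, coincide in Ugp2 and overlap in Pygl, Pygb and Pygm.

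Within groups the same arrays were often lowest. These ranks were counted over the 9 genes only, so whether they are particular to them was not tested. Mutant array 1 had the lowest mutant value in 7 of the 9 genes, and control array 4 the lowest control value in 6. Control array 2 had the highest control value in 6. Against the labelled control mean, mutant array 1 read -1.18 for Ppp1r3c and -0.98 for Pgm1, and mutant array 3 read -0.91 and -0.55. Control array 4 read -0.30 and -0.22 for the same genes.

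The rest of the pathway was read from 7 lists, chosen like the members with earlier results of these data known. In them 40 genes each had a probe set naming them alone. Of the 40 genes 8 fell, 1 rose and 31 did not pass (22.5% called, against 7.23% of all genes). Outside the 9 members 4 of 31 fell and 1 rose. The median log2 difference over the 40 was -0.0062, and over all genes 0.025. The number that fell was 5 without control array 2, 5 without control array 3 and 5 without mutant arrays 1 and 2 together. Calls were also fewer over all genes in these settings, with 619, 620 and 646 lower, against 925 in the main test.

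Glycogen synthase isoforms moved in opposite directions. Gys2, the synthase of liver, lies on chromosome 6 (142422612 to 142473130) and was the gene of these lists that rose. It read 8.43, 8.86, 9.31 and 9.08 in mutant arrays 1 to 4 and 8.01, 8.25, 7.95 and 7.58 in control arrays 1 to 4. The groups did not overlap, with mutant array 1 nearest to the controls. The labelled mutant mean of 8.92 ± 0.371 was 1.96-fold above the labelled control mean of 7.95 ± 0.275 (SD, n = 4 each; log2 difference 0.97, SE 0.185, limma adjusted p = 0.0118). Without mutant arrays 3 and 4 together the log2 difference was 0.70 and the call was lost (limma adjusted p = 0.0539). The liver markers Alb, Apoa1, Ttr and Fgb did not pass (0 of 4), with a mean of 7.96 to 9.72 over the arrays labelled mutant and 8.999 to 9.33 over those labelled control. Among the arrays labelled mutant all 4 were lowest in array 1, as Gys2 was. Alb and Ttr varied widely there (SD 1.55 and 0.942), so their failed tests say little. Whether liver RNA had a part in the Gys2 difference was not tested.

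In the synthesis list 4 of 8 genes fell and 1 rose. Pgm2l1, a relative of the phosphoglucomutases that makes glucose 1,6-bisphosphate, fell by 0.32 on the log2 scale (8.06, 8.06, 8.01 and 8.18 in mutant arrays 1 to 4, and 8.43, 8.47, 8.32 and 8.37 in control arrays 1 to 4; limma adjusted p = 0.00880, and 0.0628 without mutant arrays 1 and 2 together). Gyg, glycogenin, the protein primer of each glycogen particle, had a log2 difference of -0.0022 (SE 0.0608, limma adjusted p = 0.988), which was 0.019 after quantile normalization. Of the 4 breakdown enzymes measured 0 passed; Gaa, the lysosomal glucosidase, had a log2 difference of 0.052 (limma adjusted p = 0.783).

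Among the 7 phosphatase-targeting subunits Ppp1r3c alone passed, with a list median of -0.020. Ppp1r3b, the subunit best known from liver, read 7.62 to 7.79 in the arrays labelled mutant and 7.81 to 8.07 in those labelled control, without overlap, and did not pass (log2 difference -0.25, limma adjusted p = 0.0640). It passed when only the upper 60% of probe sets by mean were tested (0.0432). Ppp1r3a, Ppp1r3d, Ppp1r3e, Ppp1r3f and Ppp1r3g had log2 differences from -0.15 to 0.20 and did not pass. Ppp1r3a, with means of 5.06 (labelled mutant) and 5.07 (labelled control), lay below the arrays' lower quartiles, where differences can be compressed. Ppp1r3e, at 0.20, was 0.11 when mutant array 1 was left out, 0.040 when mutant array 2 was left out too, and 0.35 without mutant arrays 3 and 4 together, where it passed (limma adjusted p = 0.0481). Of the 5 phosphatase 1 catalytic subunits and glycogen synthase kinases 0 passed; Ppp1cc had a log2 difference of -0.15 (limma adjusted p = 0.532), which was -0.080 without mutant array 2 or without control array 4, and Gsk3a and Gsk3b, which inactivate glycogen synthase, had 0.049 and -0.037. Of the 7 phosphorylase kinase genes measured, whose product activates phosphorylase, 0 passed, with a median of 0.090; Calm3 had a log2 difference of -0.19 (limma adjusted p = 0.416), which was -0.059 without mutant array 2, and Phkb, whose groups did not overlap, 0.15 (0.157).

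Of the 3 quality control genes, Epm2a fell. It encodes laforin, the phosphatase that removes phosphate from glycogen, and read 7.73, 7.91, 7.71 and 7.76 in mutant arrays 1 to 4 and 8.20, 8.45, 8.47 and 7.99 in control arrays 1 to 4. The groups did not overlap, with mutant array 2 and control array 4 nearest to each other. It was 1.41-fold lower (log2 difference -0.50, SE 0.105, limma adjusted p = 0.0190), a call lost without control array 2 (0.0602), control array 3 (0.0552), mutant arrays 1 and 2 together (0.0622) or mutant arrays 3 and 4 together (0.0801). Nhlrc1, which encodes malin, the ubiquitin ligase that partners laforin, had a log2 difference of 0.13 (limma adjusted p = 0.306), and Stbd1, which tethers glycogen to membranes, 0.23 (0.0772). Stbd1 passed without mutant arrays 3 and 4 together (0.32, limma adjusted p = 0.0400). Its means of 6.41 (labelled mutant) and 6.18 (labelled control) lie near the arrays' lower quartiles.

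Glucose 6-phosphate, the entry to glycogen, is made by hexokinases and cleared to glucose by glucose 6-phosphatase. Hk2, an inducible hexokinase, read 6.92, 7.06, 6.89 and 6.82 in mutant arrays 1 to 4 and 7.71, 8.42, 8.67 and 7.98 in control arrays 1 to 4, without overlap, and was 2.42-fold lower (log2 difference -1.28, SE 0.178, limma adjusted p = 0.00279). Hk1, the housekeeping form, fell by 0.34 (limma adjusted p = 0.0218), but the mean of its probe sets fell by 0.10 and did not pass (0.305). It missed the threshold, too, when mutant array 2 or 4 or control array 1, 2 or 3 was left out (limma adjusted p from 0.0521 to 0.0687), or mutant arrays 3 and 4 together (0.0606). G6pc, the catalytic subunit of glucose 6-phosphatase in liver and kidney, had a log2 difference of 0.14 (limma adjusted p = 0.495), G6pc3 0.077, and Slc37a4, the glucose 6-phosphate transporter, -0.28 (limma adjusted p = 0.168). Leaving out mutant array 1 put G6pc at 0.25 and Slc37a4 at -0.17, and leaving out mutant array 4 put G6pc at 0.077. Slc37a4 was -0.10 with mutant arrays 1 and 2 both left out, and passed without mutant arrays 3 and 4 together (-0.45, limma adjusted p = 0.0307), where G6pc was -0.023. Of the 6 genes measured in this list 2 fell.

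**Figure D3:**
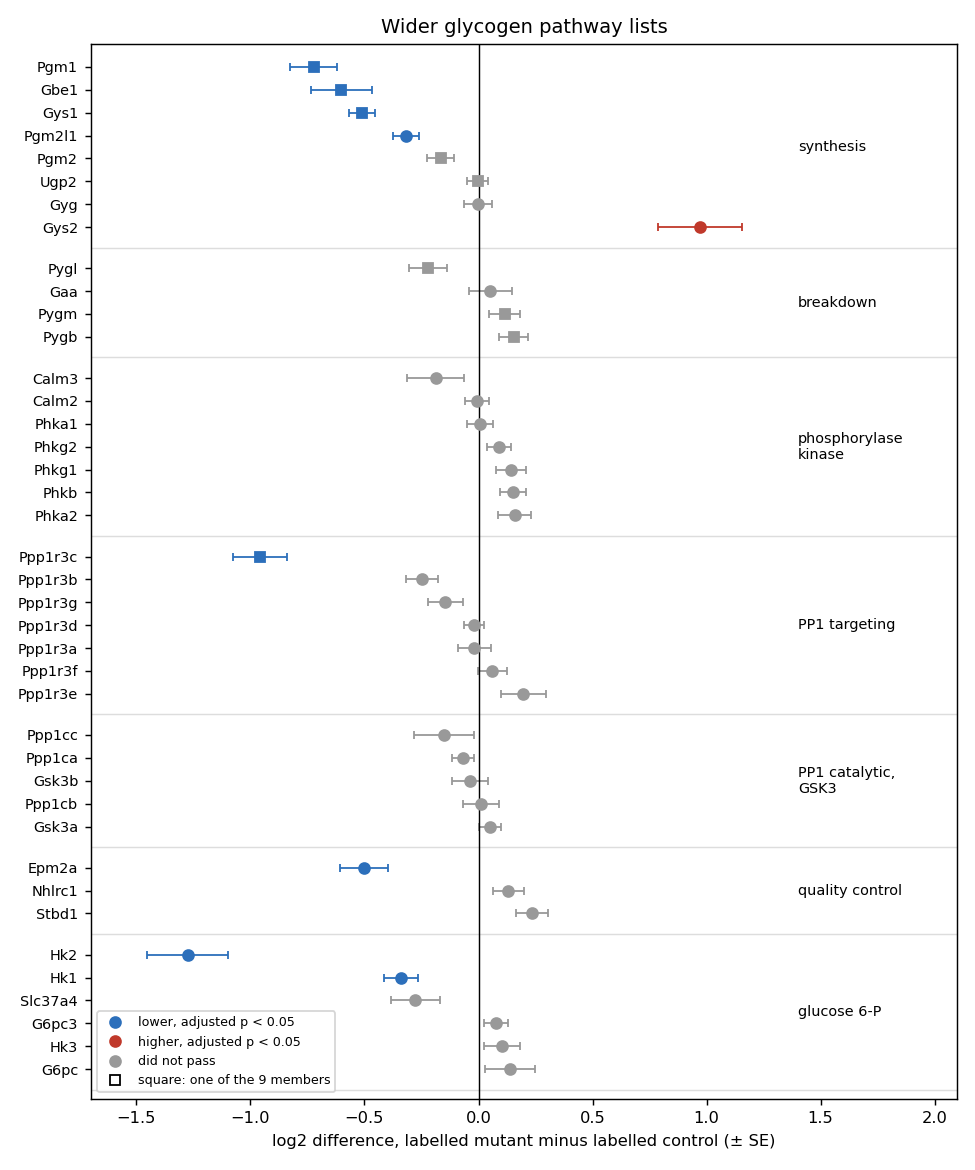
Log2 difference (labelled mutant minus labelled control) ± SE for the 40 measured genes of the 7 glycogen lists, grouped by role; squares are the 9 members, blue points passed the limma test as lower, red as higher and grey did not pass. Pgm1, Gbe1, Gys1, Pgm2l1, Ppp1r3c, Epm2a, Hk1 and Hk2 passed as lower and lie to the left, Hk2 furthest at -1.28. Gys2 lies to the right at 0.97, while breakdown and phosphorylase kinase genes lie between -0.22 and 0.16.

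By root mean square difference between array profiles, each centred on its gene's mean over the 8 arrays, the genes most like Gys1 were Aldoa (0.0376 log2 units), Plpp3 (0.0428) and Sipa1l2 (0.0449). The closest to Pgm1 were Itga9 (0.0733), Palmd (0.0843) and Lama4 (0.0869). Gbe1 lay closest to Plod1 (0.0988), Tfpi (0.101) and Myl9 (0.102), and Ppp1r3c to Itga9 (0.112), Tram2 (0.112) and Myct1 (0.120). All 8 arrays enter this measure, so the difference between the labelled groups makes up much of the likeness. The differences were smallest for Gys1, which of the 4 genes varied least within groups.

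Markers of endothelium and of smooth muscle and pericytes moved with the members that fell. All 5 endothelial markers (Pecam1, Cdh5, Kdr, Tek and Emcn) fell; their mean was 10.08 to 10.17 over the arrays labelled mutant and 10.73 to 10.98 over those labelled control. Of the 5 smooth muscle and pericyte markers 4 fell (mean 8.97 to 9.36 against 9.60 to 9.90). Of the proximal tubule markers 1 of 5 rose (12.29 to 12.66 against 11.96 to 12.38) and of the thick ascending limb markers 2 of 4 rose (12.13 to 12.21 against 11.79 to 11.97). None of these markers was near the floor of the scale. Of the distal convoluted tubule markers 1 of 3 and of the collecting duct markers 1 of 5 rose, while 1 of 2 podocyte and 1 of 2 red cell precursor markers fell. The collecting duct list was mixed, with 3 of 5 below 0 and a median log2 difference of -0.037. Nphs1, the other podocyte marker measured, had 0.17 and Slc4a1, the other red cell precursor marker, 0.25. Neither passed, and Slc4a1 is also in the collecting duct list. The lists for adipocytes and macrophages had 0 of 5 called each. The part of these cell types in the glycogen gene differences was not tested, and in whole-kidney RNA fewer cells of a type and less RNA per cell cannot be told apart.

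**Figure D4:**
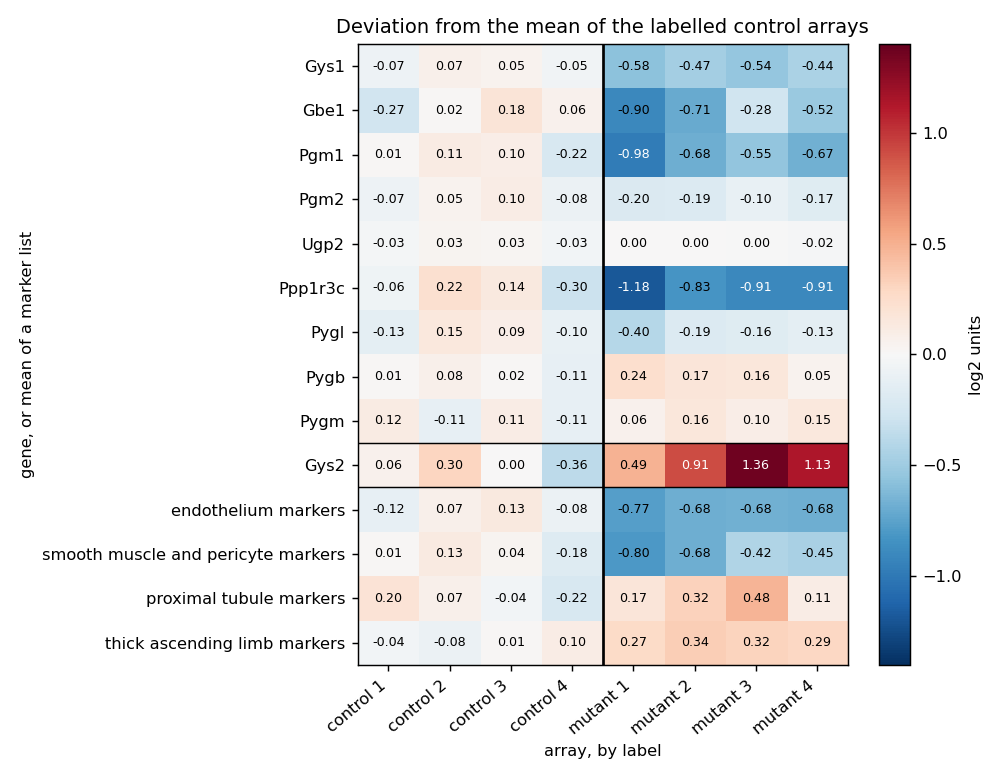
Difference of each array from the mean of the labelled control arrays, in log2 units, for the 9 genes, for Gys2 and for the mean of 4 marker lists. Ppp1r3c is -1.18 to -0.83 in the 4 mutant arrays and Gys2 0.49 to 1.36, and the endothelial mean is -0.77 to -0.68.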

How the data were processed

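RNA from whole kidneys was isolated with TRIzol and RNeasy and labelled with biotin, per the labels' protocols. The deposited values are log2 expression values, 1 for each of 35556 probe sets and 8 arrays, from 1.92 to 14.7. Limma is named in the submitters' processing notes, with no version; background correction, summarization and normalization are not given in the sources used here. No value was transformed or filtered, and no absence calls were used. Precision is limited by the number of arrays (median SE of a difference 0.0718).

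Of the probe sets, 21789 named exactly 1 gene; names were updated to GRCm38.p6 genes for 21701 and kept for 88. The probe set with the highest mean represented each gene. Differences were fitted over all 19936 genes with limma 3.58.1 in R 4.3.3 (lmFit, eBayes, two-sided), with Benjamini-Hochberg adjustment over all genes. The script was tested on simulated data. Exact permutation tests compared 4 against 4 arrays. The members, lists and rules were chosen with earlier results of these data known. Named genes were all members, list genes that passed, the largest change in lists where none did, the 3 nearest profiles of each member that fell, and Vhl with 5 HIF-induced genes; other list genes were named after their values were seen.

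Array numbers run 1 to 4 in both groups. Arrays sharing a number had deviations from their group means that correlated across genes (0.138, 0.153, 0.295 and 0.175), each above 0.1. Of the pairs with unlike numbers, only mutant array 2 with control array 1 was also above 0.1 (0.111). On this evidence of the data alone, the replicate block and the differences by array number treat arrays of 1 number as paired. The main test has no block, and the exact permutation tests ignore the pairing too.

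Alternatives were quantile normalization, centring on array medians, the upper 60% of probe sets, array weights, a robust eBayes with trend, averaging all probe sets of a gene, the replicate block, an adjusted p under 0.01, and leaving out each array. Each member has 1 probe set, so trying its other probe sets was not possible. Leaving out mutant arrays 1 and 2, or 3 and 4, together was added after the data were seen.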

Additional observations from a re-analysis of the deposited data

Results flagged for a closer look

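Among 80 groups of 4 arrays (40 list genes, each labelled group), 4 had an end array whose gap to the nearest value, as a share of the group's range, was above Dixon's 95% critical value for 4 values; chance gives about 1 in 20. Phka2 had mutant array 2 at 9.66 and the others at 9.54 to 9.56 (share of the range 0.830). Gsk3b had control array 3 at 10.48 and the others at 10.37 to 10.39 (0.859). Hk1 had control array 3 at 12.63 and the others at 12.55 to 12.56 (0.850). Hk3 had mutant array 3 at 6.55 and the others at 6.77 to 6.79 (0.888). None of the 9 glycogen members passed that value.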

How the results depend on the processing

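Gys1, Pgm1 and Ppp1r3c kept their direction and stayed past the threshold under all 17 alternatives, with log2 differences of -0.53 to -0.49, -0.83 to -0.61 and -1.06 to -0.88. Pgm2, Pygl, Pygb and Pygm kept their direction and did not pass in any. Averaging probe sets, 1 of the 17, could not change the difference of a member, each having 1 probe set. The adjusted p under 0.01 was applied only to the count over all genes. Gbe1 was above that limit in the main test (limma adjusted p = 0.0239). Gbe1 ran from -0.71 to -0.50 with 1 array left out, and was -0.40 without mutant arrays 1 and 2 together. Ugp2, near 0, changed sign: 0.012 after quantile normalization, 0.0019 without mutant arrays 3 and 4 together, and -0.015 to 0.0068 with 1 array left out. With the replicate block, which ended the call of Vhl and changed none of a member or of a list gene, the log2 difference of Gbe1 stayed -0.60 (limma adjusted p = 0.00308), and 1657 genes passed.

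The number of list genes that fell was 5 to 8 with 1 array left out and 5 without mutant arrays 1 and 2 together, and the number that rose was 2 without mutant arrays 3 and 4 together (Ppp1r3e and Stbd1, with Gys2 no longer passing). Over all genes, 902 to 1368 passed with 1 array left out (263 to 487 higher, 619 to 908 lower). Without mutant arrays 1 and 2 together 316 were higher and 646 lower. At an adjusted p under 0.01, 602 passed, 148 higher and 454 lower. The cause was not tested.

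List genes near 0 also changed sign. After quantile normalization Gyg was 0.019 and Calm2 0.011, and with array weights Gaa was -0.0079. With 1 array left out the ranges were -0.047 to 0.029 for Gyg, -0.039 to 0.012 for Calm2, -0.021 to 0.11 for Gaa, -0.076 to 0.032 for Ppp1r3a, -0.088 to 0.037 for Gsk3b, -0.021 to 0.036 for Phka1 and -0.023 to 0.073 for Ppp1cb. Without mutant arrays 1 and 2 together Gyg was 0.021, Gaa -0.072, Calm3 9e-04, Ppp1r3f -0.033, Ppp1cc 0.039 and Gsk3b 0.083. Without mutant arrays 3 and 4 together Ppp1r3a was 0.027, Ppp1cb -0.080 and G6pc -0.023.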
